A study of Sus scrofa with 23 samples.

Results

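LXN, the gene for latexin, was followed in the prefrontal cortex of 23 pigs that had received psilocybin or saline. It is 1 gene (ENSSSCG00000020984) of the 25880 in the count table and of the 15049 with enough reads to test. LXN was chosen by its measured values, taken here to be those of the 1 day animals: it ranked 11 of 15049 by unadjusted p where psilocybin was compared with saline at 1 day. It also ranked 1 where saline animals of 1 week were compared with those of 1 day, which may have entered the choice. Differences of treatment or time that use the 1 day animals are therefore given as descriptions without a test. The comparison of psilocybin with saline at 1 week and that of the batches were tested.

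Latexin is a cytosolic protein that blocks zinc-dependent digestive-type carboxypeptidases, enzymes that cut single amino acids from the C-terminus of proteins and peptides. It is built of a pair of subdomains folded like cystatins, the inhibitors of cysteine proteases, and its closest relative in mammals is the membrane protein encoded by RARRES1. In rodent brain latexin is known as a marker of glutamatergic neurons in the deep layers of lateral neocortex and in the claustrum, the thin sheet of grey matter below the insular cortex.

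The animals were adolescent female Danish slaughter pigs of 20 kg. Each received 1 intravenous dose of 0.08 mg/kg psilocybin, which the body turns into psilocin, an agonist of the serotonin receptor 5-HT2A, or saline while awake and moving freely. Death by pentobarbital overdose followed after 1 day (6 psilocybin and 5 saline animals) or 1 week (6 and 6). The series states 6 animals in every group, and the remaining saline animal of the 1 day groups was not analysed here. Libraries were made from poly-A selected RNA, 1 per animal, in 2 batches of 11 and 12 libraries, with 3 animals of each group in each batch except for 2 saline animals of 1 day in batch 1. Numbers given to animals below count within a group, from the lowest of the submitters' animal numbers up.

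Counts assigned to genes ranged from 9504421 to 18654626 per library. A total of 3 libraries stood apart on the first principal component (21.27% of the variance): saline animal 5 of 1 day, saline animal 1 of 1 week and psilocybin animal 6 of 1 week. Saline animal 5 of 1 day was also the animal with the highest LXN level, so LXN fold changes are given with and without these 3. Markers of upper-layer, deep-layer and inhibitory cortical neurons were present, with 8 of 9, 14 of 14 and 8 of 8 listed genes expressed highly enough to test.

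LXN lies on pig chromosome 13, at chr13:98435319-98441785 of the build susScr11, on the minus strand. Its 6 annotated exons sum to 1122 bases within a span of 6467 bases. The whole span falls inside that of GFM1 (chr13:98411158-98458307), a gene on the plus strand that encodes a mitochondrial translation elongation factor. Reads were counted without regard to strand, so a read of GFM1 that reached a LXN exon would have been counted for LXN. In the annotation 0 exon pairs of the 2 genes overlap, and the nearest exon of GFM1 ends 36 bases from a LXN exon. The last exon of LXN, counted along its own strand, is the one beside it. Read pairs that touched both genes were divided between them. The LXN count was not a whole number in 8 of 23 libraries, which takes a divided pair. A whole count can also hold divided pairs, so the other libraries are not shown to be free of them. The counts of LXN ran from 89.5 to 419.5 per library, which gives a counting error of 4.88% to 10.6% per library.

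**Figure D1:**
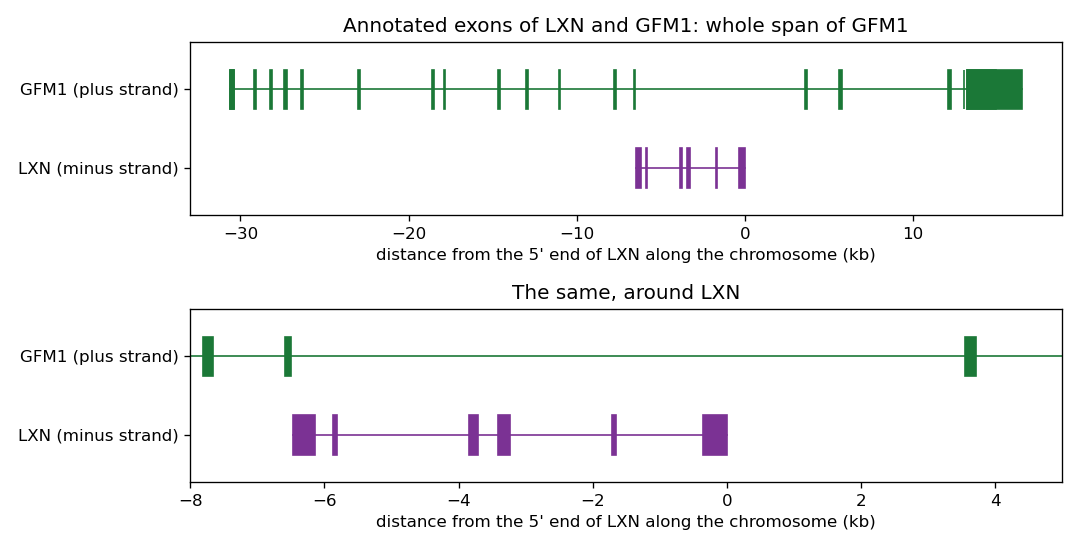
Annotated exons of LXN and GFM1 drawn to scale, with distance from the 5′ end of LXN along the chromosome in kb on the x axis and 1 row per gene. Boxes are exons and lines the span between them. All 6 LXN exons lie in 1 intron of GFM1, the closest pair 36 bases apart.

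LXN was moderately abundant in this tissue. Averaged over the 23 libraries it stood at 14.7 CPM (counts scaled to library size by TMM) and 13.1 RPKM (the same per kilobase of exon). That RPKM was higher than that of 71.3% of the tested genes. Its biological coefficient of variation, the spread between animals beyond counting error and the group and batch terms, was 20.8% against a median of 14.3% over all tested genes. LXN thus varied more between animals than most genes, at the 77.5th percentile.

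The highest levels of LXN were those of the saline animals of 1 day. Animals 1 to 5 had 22.3, 22.0, 20.8, 15.8 and 29.5 CPM, a mean of 22.1 ± 4.90 (SD, n = 5). Animals 1 to 6 given psilocybin 1 day earlier had 17.1, 13.4, 16.8, 21.4, 9.28 and 10.1 CPM, a mean of 14.7 ± 4.64 (SD, n = 6). These 2 groups overlapped: 3 of the 6 psilocybin animals lay below every saline animal, and 3 of the 5 saline animals lay above every psilocybin animal. Psilocybin animal 4, at 21.4 CPM, lay within the saline range, below 3 of the 5 saline animals.

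One week after treatment LXN was low in both groups. Animals 1 to 6 given psilocybin had 9.36, 14.9, 11.4, 11.1, 13.8 and 11.5 CPM, a mean of 12.02 ± 1.99 (SD, n = 6). Animals 1 to 6 given saline had 12.8, 13.1, 12.8, 10.9, 9.26 and 8.36 CPM, a mean of 11.2 ± 2.02 (SD, n = 6). The 2 groups overlapped almost fully, and the spread within each was less than that within either 1 day group.

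On the RPKM scale the order of the groups was saline at 1 day (19.7), psilocybin at 1 day (13.1), psilocybin at 1 week (10.7) and saline at 1 week (9.98). Of the 6 pairs of groups, the saline animals of 1 day overlapped neither 1 week group, and the other 4 pairs overlapped. The mean of the saline animals at 1 day was 1.97 times that of saline animals at 1 week and 1.84 times that of psilocybin animals at 1 week. Between psilocybin at 1 day and at 1 week the ratio of means was 1.22. As background, 21 of 15049 genes (0.14%) did not overlap between the saline groups of 1 day and 1 week, and 39 (0.259%) did not overlap between saline at 1 day and psilocybin at 1 week. Both shares hold 1 day animals, by whose values LXN was chosen, and nothing is read from them.

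**Figure D2:**
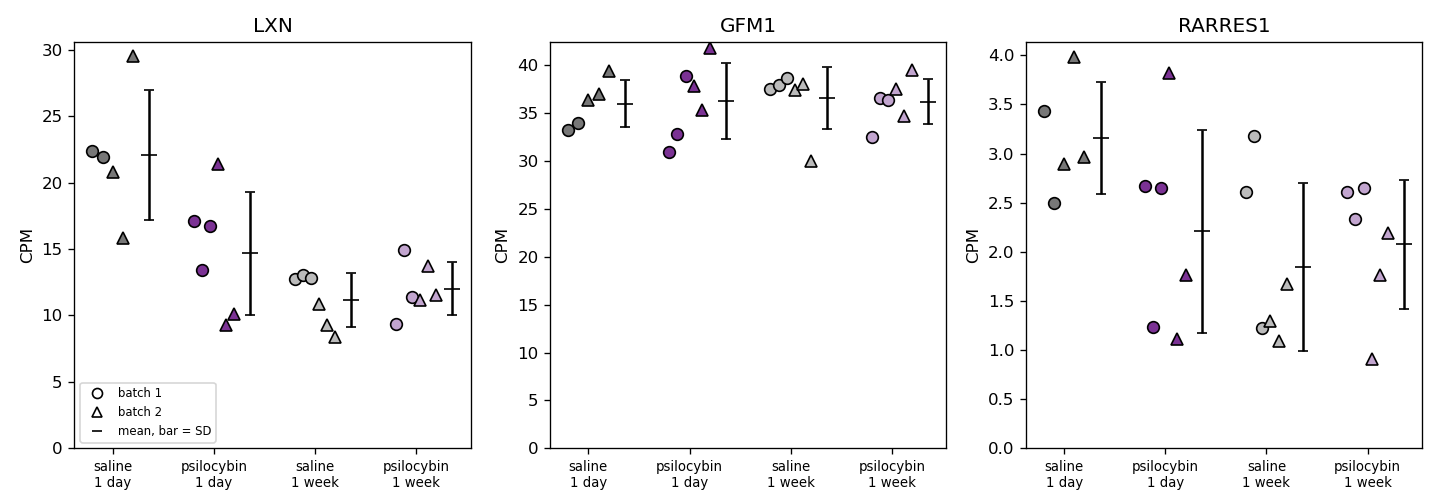
CPM (y axis) of LXN, GFM1 and RARRES1 in every animal of the 4 groups (x axis). Points are animals, circles batch 1 and triangles batch 2, and the bar beside each group is its mean ± SD. LXN is high in the saline animals of 1 day (15.8 to 29.5) and between 8.36 and 14.9 in all 12 animals of 1 week, while GFM1 means lie between 35.95 and 36.55 in the 4 groups.

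In the model over all 23 libraries LXN was 0.60 ± 0.18 (SE) log2 units lower after psilocybin than after saline at 1 day, a fold change of -0.60 with a 95% confidence interval of -0.98 to -0.22. This contrast is taken to be the one LXN was chosen by, and no test is given. At the adjusted p threshold of 0.05, edgeR's quasi-likelihood test called 0 of 15049 genes (0%) in it, with 190 higher and 236 lower (2.83% in all) at an unadjusted p under 0.05. DESeq2 and limma-voom also called 0, with 452 and 397 genes at that unadjusted p. Without saline animal 5 the fold change was -0.44, and without psilocybin animal 4 it was -0.80. Without the 3 libraries that stood apart it was -0.44. These are bulk tissue values, in which fewer cells of a type and less RNA per cell cannot be told apart.

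Both batches had the same direction at 1 day. They are parts of the contrast that LXN is taken to be chosen by, so nothing is read from this. In batch 1 the 3 psilocybin animals (13.4 to 17.1 CPM) lay below both saline animals (22.0 and 22.3), a mean difference of -0.49 in log2 CPM. In batch 2 the 3 psilocybin animals spanned 9.28 to 21.4 CPM and the 3 saline animals 15.8 to 29.5, a mean difference of -0.75 with overlapping groups. Psilocybin animal 4, which made that overlap, came from the deepest library, with 18654626 counts.

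Psilocybin and saline animals did not differ in LXN at 1 week beyond the spread between animals. The fold change was 0.11 ± 0.18 (SE), with a 95% confidence interval of -0.27 to 0.49. Its adjusted p was 1 by edgeR's quasi-likelihood test (unadjusted p = 0.5584). An exact two-sided permutation of the treatment labels within batches, over 400 arrangements that allow no p below 0.005, gave p = 0.44. Among 15049 genes LXN ranked 7295 by p, edgeR called 0 (0%), and 300 (1.99%) had an unadjusted p under 0.05 (318 by DESeq2 and 257 by limma-voom, which called 0 each). Without the 3 libraries that stood apart the fold change was 0.13. The sign differed between batches: the mean log2 CPM difference was -0.14 in batch 1 and 0.35 in batch 2. Within batch 2 all 3 psilocybin animals (11.1 to 13.8 CPM) were above all 3 saline animals (8.36 to 10.9). Within batch 1 the saline animals (12.8 to 13.1) lay inside the psilocybin range (9.36 to 14.9). The share of all genes without overlap within batch 2 was not counted, so nothing is read from that separation.

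The psilocybin effect on LXN at 1 week was 0.71 ± 0.26 (SE) log2 units above that at 1 day (95% confidence interval 0.17 to 1.24). This value holds the 1 day contrast and is a description. It was 0.365 in batch 1 alone and 1.03 in batch 2 alone, and 0.57 without the 3 libraries that stood apart.

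Between the times, LXN differed more after saline than after psilocybin in these animals, and that contrast was not tested. After saline, LXN was lower at 1 week than at 1 day, a fold change of -1.002 ± 0.19 (SE) with a 95% confidence interval of -1.39 to -0.62. After psilocybin the same difference was -0.30 ± 0.18 (-0.67 to 0.08). The first of these shares its saline animals, and the second its psilocybin animals, with the 1 day contrast, so neither was tested. EdgeR called 0 genes (0%) in each, with 303 (2.01%) and 479 at an unadjusted p under 0.05. DESeq2, with 301 and 525 genes at that p, called 1 in each. The one after saline was LXN itself (-1.01 ± 0.20), on values that may have chosen it, so nothing is read from the call. The one after psilocybin was CENPF, a kinetochore protein gene. Limma-voom called 0 in each, with 296 and 450 genes at that unadjusted p. Within batch 1 alone the saline difference of LXN was -0.78 and within batch 2 alone -1.23, and without the 3 libraries that stood apart it was -0.88. The time difference after psilocybin was -0.10 without psilocybin animal 4 of 1 day and -0.31 without those 3 libraries.

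**Figure D3:**
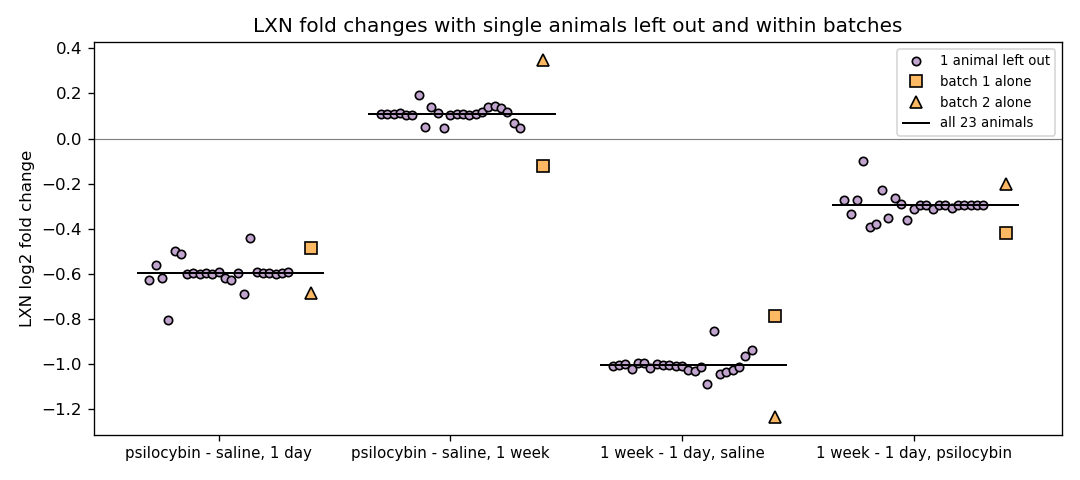
LXN log2 fold change (y axis) in 4 comparisons (x axis). Each small point is the fit without 1 of the 23 animals, the line is the fit with all of them, and squares and triangles are batch 1 and batch 2 alone. The 1 day difference, a description, lies between -0.80 and -0.44, and the 1 week difference lies on both sides of 0 in the 2 batches.

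LXN did not pass the test between the batches. It was -0.16 ± 0.13 (SE) log2 units in batch 2 against batch 1 (95% confidence interval -0.43 to 0.11), with an adjusted p of 0.3711 by edgeR's quasi-likelihood test. An exact two-sided permutation of the batch labels within groups, over 80000 arrangements, gave p = 0.1663. The difference was -0.19 without the 3 libraries that stood apart. Of all tested genes 4955 (32.9%) differed between batches at the adjusted threshold, 2428 higher and 2527 lower in batch 2. In the saline animals of 1 week the 3 of batch 1 (12.8 to 13.1 CPM) were all above the 3 of batch 2 (8.36 to 10.9). The share of all genes without overlap there was not counted, and nothing is read from it.

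GFM1, the gene in whose intron LXN sits, had nearly the same mean in all 4 groups. Its means were 35.95 ± 2.47 CPM (SD, n = 5) in saline and 36.2 ± 3.999 (n = 6) in psilocybin animals of 1 day. At 1 week they were 36.6 ± 3.28 in saline and 36.2 ± 2.38 in psilocybin animals (n = 6 each). Its fold change was 0.02 ± 0.08 (95% confidence interval -0.15 to 0.19) at 1 day, -0.02 ± 0.08 at 1 week and 0.03 ± 0.08 between the times after saline. None passed the test (edgeR adjusted p = 0.9996, 1 and 0.9996). Set against GFM1 in the same library, in RPKM, LXN was 2.12 to 3.71 times as abundant in the saline animals of 1 day and 1.19 to 2.80 times after psilocybin. At 1 week the ratio was 1.21 to 1.71 after saline and 1.42 to 2.02 after psilocybin. The order of the groups in this ratio was that of LXN alone.

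RARRES1, the paralog of LXN, lies 19.5 kb away on the same strand at chr13:98461316-98506380. It encodes a retinoic acid responsive membrane protein, and its level here was low, with a mean of 29.6 counts per library. Its lowest, median and highest values were 2.50, 2.97 and 3.98 CPM in the saline animals of 1 day (n = 5) and 1.11, 2.21 and 3.82 in the psilocybin animals of 1 day (n = 6). At 1 week they were 1.09, 1.49 and 3.18 after saline and 0.912, 2.26 and 2.65 after psilocybin (n = 6 each). All these groups overlapped, and the saline animals of 1 day had the highest mean (3.15 ± 0.569 CPM).

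The fold changes of RARRES1 had the same signs as those of LXN and none passed the test. It was -0.51 ± 0.30 at 1 day (edgeR adjusted p = 0.9996), 0.17 ± 0.30 at 1 week (adjusted p = 1) and -0.83 ± 0.30 from 1 day to 1 week after saline (unadjusted p = 0.01136, adjusted p = 0.9996). These 2 comparisons with a negative sign share the saline animals of 1 day. Across the 23 libraries, after removal of the batch means, log2 CPM of RARRES1 and LXN had a Pearson r of 0.62 and a Spearman rho of 0.63. It was 0.38 after removal of group and batch, and 0.53 without the 2 libraries farthest from the LXN median (saline animal 5 and psilocybin animal 4 of 1 day). The r of 0.62 was above those of 99.8% of 12494 genes with a symbol. It has the group differences left in, with the 1 day values by which LXN is taken to be chosen. Nothing is therefore read from that rank. The 23 points share depth and tissue composition, and the value is a description. LXN and RARRES1 are related genes, and how far reads of one could have been placed on the other was not tested.

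Like GFM1 and RARRES1, the remaining tested genes around LXN did not pass the test between psilocybin and saline. RSRC1, which encodes a splicing-related serine/arginine-rich protein, ends 101.7 kb away and had fold changes of -0.21 ± 0.15 at 1 day and -0.06 ± 0.15 at 1 week. MFSD1, the gene of a lysosomal transporter, starts 150.6 kb away and had -0.08 ± 0.09 and -0.02 ± 0.09. A gene without a symbol (ENSSSCG00000037461), 31.5 kb away, had -0.20 ± 0.23 and -0.08 ± 0.22. All 3 were far from the threshold by edgeR's quasi-likelihood test (adjusted p = 0.9996 at 1 day and 1 at 1 week). Their r with LXN over the 23 libraries was 0.26, 0.09 and -0.02, and that of GFM1 was 0.11. The gene without a symbol was 0.57 ± 0.16 log2 units higher in batch 2 (edgeR adjusted p = 0.009261).

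**Figure D4:**
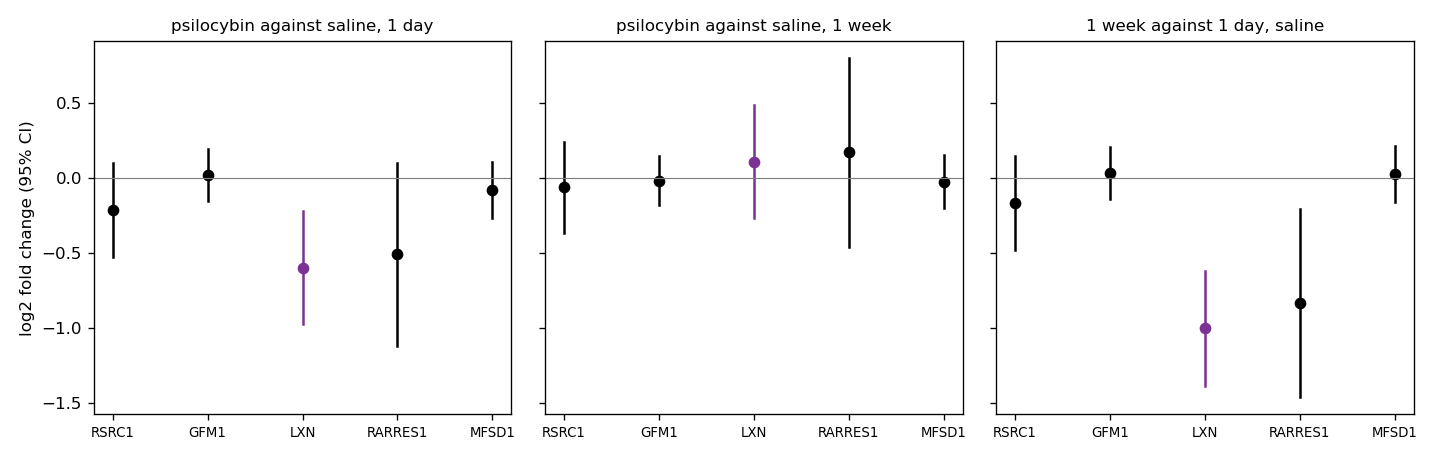
Log2 fold change with its 95% confidence interval (y axis) for LXN and the 4 genes with a symbol nearest to it (x axis, in chromosomal order) in 3 comparisons. The 1 day value of LXN (-0.60) is a description. GFM1 lies between -0.02 and 0.03 in all 3 panels, and RARRES1 has the widest intervals.

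Few genes of the enzyme subfamily that latexin inhibits could be tested in this tissue. Of 9 listed carboxypeptidases of the A and B subfamily, 7 were found by symbol and 2 had enough counts to test, CPA6 and CPB2. CPA3 and CPA5 were not found by symbol, so their levels are not known here. CPA6, an extracellular carboxypeptidase, had 2.71 ± 0.390 CPM in the saline animals of 1 day and 2.51 ± 0.677 after psilocybin, a fold change of -0.13 ± 0.21. CPB2, the plasma carboxypeptidase that slows fibrinolysis, had a mean of 8.39 counts per library. It stood at 0.958 ± 0.241 CPM after saline and 0.484 ± 0.193 after psilocybin at 1 day, a fold change of -0.92 ± 0.43 (unadjusted p = 0.04452, edgeR adjusted p = 0.9996). At 1 week CPA6 had 0.22 ± 0.20 and CPB2 -0.20 ± 0.44, neither past the test. The median fold change of the 2 was -0.52 at 1 day and 0.01 at 1 week, beside 0.00 in both over all genes. CPB2 fell under the count minimum without the 3 libraries that stood apart, which left CPA6 at -0.16 at 1 day.

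Carboxypeptidases of the other subfamilies included abundant genes, and none was called. CPE, which trims prohormones in secretory granules, had a mean of 268.3 RPKM over all libraries and fold changes of 0.00 ± 0.09 at 1 day and -0.04 ± 0.09 at 1 week. CPD, a related enzyme of the trans-Golgi network, had -0.05 ± 0.09 and 0.04 ± 0.09. Of the 7 tested members of this N and E subfamily, 5 were lower after psilocybin at 1 day (median -0.05) and 6 were higher at 1 week (median 0.07), with 0 past the adjusted threshold at either time. CPXM1, a secreted member without known enzyme activity, had the largest value at 1 week (0.60 ± 0.27, unadjusted p = 0.0373, edgeR adjusted p = 1). At 1 day CPXM1 had -0.26 ± 0.28, CPM (here the gene of carboxypeptidase M) -0.07 ± 0.19, CPZ -0.29 ± 0.31, CPXM2 0.13 ± 0.14 and AEBP1 0.00 ± 0.21. The cytosolic carboxypeptidases, which remove glutamates from tubulin, had 3 tested members of 6: AGTPBP1 (0.08 ± 0.14 at 1 day), AGBL2 (-0.03 ± 0.12) and AGBL5 (-0.06 ± 0.11). Their values at 1 week were 0.10, 0.09 and -0.07, and 0 passed the test.

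Of the other inhibitors with the cystatin fold none was called. CST3, the secreted cystatin C, had 158.5 RPKM on average, 12.1 times the mean RPKM of LXN, and fold changes of -0.01 ± 0.12 at 1 day and -0.05 ± 0.11 at 1 week. CSTB, a cystatin of the cytosol and nucleus, had -0.16 ± 0.15 and -0.12 ± 0.15. CST6 had 0.21 ± 0.29 at 1 day and -0.70 ± 0.29 at 1 week (unadjusted p = 0.0248, edgeR adjusted p = 1). Together with RARRES1 they were the 4 tested members of 10 listed. Of these 3 were lower at 1 day (median -0.09) and 3 at 1 week (median -0.09), and 0 were called. Without the 3 libraries that stood apart 2 were lower at 1 day (median 0.02).

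Neurons of the kinds in which latexin is known from rodents were looked at through 2 marker lists. Of 8 genes listed for claustrum and lateral deep cortex, 7 were tested. Between psilocybin and saline 4 were lower at 1 day (median -0.06) and 3 at 1 week (median 0.04), with 0 called. Over all 15049 genes 48.59% were lower at 1 day and 51.24% at 1 week, with medians of 0.00. The summed level of the list ran from 246.9 to 311.4 CPM in the saline and from 229.9 to 294.0 in the psilocybin animals of 1 day. At 1 week it ran from 226.4 to 274.1 after saline and from 238.9 to 279.8 after psilocybin. SYNPR, a synaptic vesicle protein gene, had -0.08 ± 0.14 at 1 day, and NTNG2, a netrin-family axon guidance gene, had 0.12 ± 0.10.

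SMIM32, a small membrane protein gene of the same list, had its highest mean in the saline animals of 1 day, as LXN did. Its means were 6.42 ± 1.80 CPM (n = 5) in saline and 4.69 ± 2.99 (n = 6) in psilocybin animals of 1 day. At 1 week they were 2.17 ± 1.65 after saline and 2.68 ± 1.76 after psilocybin. Its fold change was -0.47 ± 0.42 at 1 day, 0.31 ± 0.46 at 1 week and -1.78 ± 0.45 from 1 day to 1 week after saline (unadjusted p = 0.0006243, edgeR adjusted p = 0.9996). Of the 7 tested genes of the list, 5 were lower in that comparison (median -0.06), against 48.29% of all genes (median 0.00), with 0 called. SYNPR (0.04 ± 0.14) and OPRK1, the kappa opioid receptor gene (0.15 ± 0.42), had positive values. NR4A2, a nuclear receptor of claustral and deep neurons, had -0.34 ± 0.11 in that comparison (unadjusted p = 0.003532, adjusted p = 0.9996). The remark on SMIM32 and the naming of NR4A2 and OPRK1 followed from their values.

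Most deep-layer neuron markers had lower estimates in the saline animals of 1 week than in those of 1 day, in the direction of LXN. Of the 14 listed, all were tested, and 12 were lower at 1 week than at 1 day after saline (median -0.21, against 0.00 and 48.29% lower over all genes). None passed the adjusted threshold. An unadjusted p under 0.05 was found for 3 of the 14, of which 2 were lower and 1, TSHZ2, was higher (0.77 ± 0.28, named after its value was seen). From 1 day to 1 week after psilocybin 10 of 14 were lower (median -0.12), with 0 called and 3 at an unadjusted p under 0.05, all lower. For the comparison of the times after saline, 12 of 14 were also lower without the 3 libraries that stood apart (median -0.24). Their summed level was 566.2 to 607.6 CPM in the saline animals of 1 day and 432.7 to 576.1 at 1 week. After psilocybin it was 515.4 to 687.9 at 1 day and 425.3 to 615.0 at 1 week. Between psilocybin and saline the list was balanced, with 8 of 14 lower at 1 day (median -0.02) and 7 of 14 at 1 week (median 0.00). CRYM had 0.05 ± 0.15, PCP4 -0.20 ± 0.18 and TBR1 -0.11 ± 0.11 at 1 day. Psilocybin animal 4 of 1 day, whose LXN level was that of the saline animals, had the highest deep-layer sum of all 23 (687.9 CPM) and the second claustrum sum (294.0). It was also 3rd for upper-layer neurons and the lowest of 23 for microglia (198.0 CPM). The highest claustrum sum (311.4) was that of saline animal 4 of 1 day, which had the least LXN of its group (15.8 CPM). The part of neuron composition in the differences of LXN was not tested.

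Markers of other cells were set beside LXN in the same way. At 1 day the upper-layer neuron list had 0 of 8 lower (median 0.14), astrocytes 0 of 9 (0.15), oligodendrocyte precursors 0 of 5 (0.26) and inhibitory neurons 4 of 8 (0.06). Lower members numbered 11 of 15 for microglia and macrophages (-0.13), 5 of 7 for oligodendrocytes (-0.06), 4 of 8 for mural cells and fibroblasts (-0.01), 1 of 4 for endothelial cells (0.04) and 1 of 5 for mast and blood cells (0.19). No member of these lists passed the adjusted threshold. Without the 3 libraries that stood apart, 0 of 7 oligodendrocyte genes (median 0.12) and 3 of 4 endothelial genes (-0.10) were lower at 1 day. Lower members then numbered 6 of 8 for mural cells and fibroblasts (-0.08) and 12 of 15 for microglia and macrophages (-0.06). They numbered 2 of 8 for upper-layer neurons, 1 of 5 for oligodendrocyte precursors and 2 of 5 for mast and blood cells. Astrocytes (0 of 9) and inhibitory neurons (4 of 8) kept their counts.

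Neuronal members of high level had 1 day fold changes of 0.22 ± 0.12 for LAMP5, 0.19 ± 0.20 for CUX2 and 0.04 ± 0.19 for RASGRF2 among upper-layer genes. The interneuron genes GAD1, SST and PVALB had 0.00 ± 0.10, -0.15 ± 0.16 and -0.38 ± 0.20. The myeloid genes SPI1, TYROBP and CSF1R had -0.17 ± 0.12, -0.13 ± 0.18 and 0.07 ± 0.14. The values of these 9 genes lay on both sides of 0. The astrocyte genes GFAP, ALDOC and SLC1A3 had 0.20 ± 0.15, 0.05 ± 0.10 and 0.15 ± 0.15. The myelin genes MBP and MAG had -0.40 ± 0.39 and 0.03 ± 0.24. COL1A1, a collagen gene, had -0.25 ± 0.39, and ALAS2, a gene of haem synthesis in red cells, had 0.73 ± 0.51.

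From 1 day to 1 week after saline all 9 astrocyte genes were higher (median 0.19) and all 8 upper-layer genes were higher (0.12), against a median of 0.00 over all genes, of which 48.29% were lower. Without the 3 libraries that stood apart 1 of 9 and 1 of 8 were lower. Summed astrocyte markers were 4442 to 6572 CPM in the saline animals of 1 day and 5586 to 8304 at 1 week, and the highest values of both groups came from libraries that stood apart.

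Saline animal 5 of 1 day, the animal with the most LXN, had the highest oligodendrocyte sum of all 23 (22760 CPM), against 3599 CPM for the lowest, saline animal 4 of the same group. That animal 4 had the least LXN of its group. The order did not hold elsewhere: saline animal 1 of 1 week and psilocybin animal 2 of 1 day came next in the oligodendrocyte sum (13740 and 12760 CPM) with 12.8 and 13.4 CPM of LXN. Psilocybin animal 4 of 1 day, with 21.4 CPM of LXN, had 6207 CPM. The part of oligodendrocyte content in these levels was not tested.

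The genes whose levels across the 23 libraries were most like that of LXN were RIMS2, DENND10, CASD1, MCMBP and RASGRP1. They were taken by Pearson r over log2 CPM after removal of the batch means, among 12494 tested genes with a symbol, whose r had a median of -0.02 and 5th and 95th percentiles of -0.38 and 0.38. RIMS2, a scaffold of the presynaptic active zone, had r = 0.79 (rho 0.74). The r was 0.65 after removal of group and batch and 0.75 without the 2 libraries farthest from the LXN median. Its mean was 65.3 ± 4.62 CPM in the saline animals of 1 day and 57.5 ± 5.74, 56.3 ± 4.49 and 56.0 ± 5.33 in psilocybin animals of 1 day, psilocybin animals of 1 week and saline animals of 1 week.

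DENND10, an endosomal trafficking gene, had r = 0.73, and 0.44 after removal of group and batch. CASD1, a sialic acid O-acetyltransferase, had r = 0.69 (0.49). MCMBP, which binds the replicative MCM helicase, had r = 0.68 (0.58), and 0.56 without the 2 farthest libraries. RASGRP1, an activator of Ras that responds to diacylglycerol, had r = 0.67 (0.53), and 0.78 without them. All 5 had their highest group mean in the saline animals of 1 day, which is the group in which LXN was highest. They were picked by likeness to LXN with the group differences left in. That pick favours this pattern, so nothing is read from it.

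The levels most opposite to LXN were those of GCDH, LMNB2, CADM1, CBS and CHAD. GCDH, a mitochondrial enzyme of lysine breakdown, had r = -0.75 (-0.55 after removal of group and batch). LMNB2, a nuclear lamin, had -0.73 (-0.40), CADM1, a synaptic adhesion molecule, had -0.73 (-0.43), and CBS, cystathionine beta-synthase, had -0.72 (-0.42). CHAD, a matrix protein gene, had -0.69 (-0.52). All 5 had their lowest group mean in the saline animals of 1 day, as with CBS at 15.9 CPM against 19.8 to 21.5 in the other groups. The pick left the group differences in here too and favours this pattern, so nothing is read from it. These are descriptions over libraries that share groups and composition. None of the 10 genes passed the adjusted threshold between psilocybin and saline by edgeR's quasi-likelihood test at either time.

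**Figure D5:**
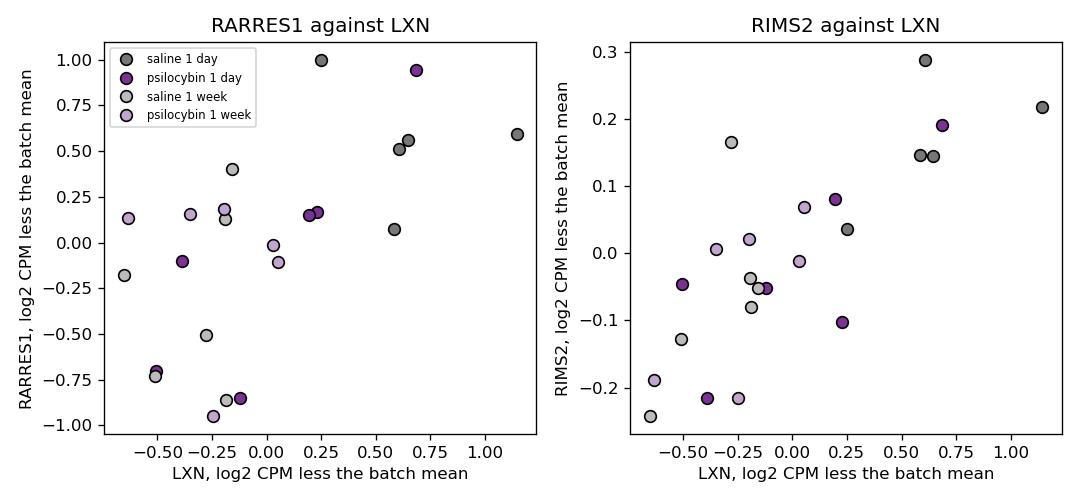
Log2 CPM less the batch mean of RARRES1 (left) and RIMS2 (right) on the y axis against that of LXN on the x axis, 1 point per animal, coloured by group. The saline animals of 1 day lie from 0.25 to 1.14 on the x axis, with psilocybin animal 4 of 1 day (0.69) among them. Over the 23 animals r is 0.62 for RARRES1 and 0.79 for RIMS2.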

How the data were processed

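The deposited table holds expected counts per Ensembl gene. Per the submitters' processing notes, the authors trimmed reads with fastp 0.20.0, aligned them with STAR 2.6c to susScr11 and assigned them to genes by featureCounts 1.5.1. Counting took primary alignments with both mates mapped, per the file headers, reads shared by several genes were divided between them, and strand was ignored. Values (72.2% whole, at a tolerance of 0) were rounded for the count models. Each library is 1 animal, and no pairing links animals of different groups.

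Genes were kept with filterByExpr (minimum count 10, minimum total 15). Tests were quasi-likelihood F tests from edgeR 4.0.16 (R 4.3.3, TMM, robust, two-sided, Benjamini-Hochberg over all 15049 genes) in 1 model with the 4 groups and batch, over all 23 libraries. SE is the fold change divided by the root of its F. Exact permutations, correlations and within-batch differences used log2 CPM with a prior count of 2. DESeq2 1.42.0 and limma 3.58.1 (voom) were alternatives, with other scalings and filters, no batch term, single batches, LXN relative to GFM1 and leaving out each animal. The removal of the 3 libraries for the lists between the times was chosen after seeing the data. The models were tested on simulated counts.

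LXN, the 15 lists (136 genes, 106 tested) and the comparisons were chosen with earlier results of these data known. Named genes are LXN, its neighbours with a symbol within 500 kb or overlapping it, RARRES1, all tested carboxypeptidases and cystatin-fold genes, up to 3 tested members of each other list with the highest RPKM, and the 5 genes most and least like LXN. A symbol was found for 14857 of the 25880 genes. Sequences were not used here.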

Additional observations from a re-analysis of the deposited data

Results flagged for a closer look

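A single animal lay far from the rest of its group in 2 of 24 groups of values looked at (LXN, GFM1, RARRES1 and other genes of the locus in each group of animals), by Dixon's 95% criterion, which chance alone meets in about 1 in 20 groups. LXN itself was in neither. GFM1, the gene around LXN, stood at 29.93 CPM in saline animal 6 of 1 week, against 37.35 to 38.67 in the other 5. The gap was 0.849 of the range of the group. The same animal had the lowest LXN level of all 23 (8.36 CPM). MFSD1 stood at 33.59 CPM in saline animal 5 of 1 day, against 23.78 to 24.7 in the other 4, a gap of 0.906 of the range. That animal also had the highest LXN level and was among the 3 libraries that stood apart on the first principal component.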

How the results depend on the processing

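LXN was refitted under 36 alternatives at each time. The 1 day fold change was negative in 36 of 36, from -0.80 to -0.44. These refits reuse the 1 day values by which LXN is taken to be chosen, so nothing is read from that count. The 1 week fold change was positive in 35 of 36, and was -0.12 in batch 1 alone and 0.35 in batch 2 alone. Without single animals it ran from 0.05 to 0.19. Its adjusted p ran from 0.9542 to 1 over the alternatives, which were fitted by edgeR, DESeq2 or limma-voom. The difference between the times was 0.365 in batch 1 alone and 0.56 to 0.92 without single animals. The difference between the times after saline was -1.09 to -0.85 without single animals, and after psilocybin -0.39 to -0.10. The batch difference was negative in 33 of 33 alternatives, with adjusted p from 0.09016 to 0.8194. GFM1 between the times after saline was 0.18 in batch 1 alone and -0.12 in batch 2 alone. The causes were not tested. With 6 animals in each group, the 95% confidence interval of LXN at 1 week, -0.27 to 0.49, leaves differences of those sizes not excluded. No paired analysis was possible because animal numbers are not shared between groups.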
